A study of Mus musculus with 4 samples.

Results

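Probe sets for 6 early response genes were examined in mouse embryonic fibroblasts: Egr1, Egr2, Nr4a1, Ier2, Ier3 and Myc. They were chosen by gene symbol, with earlier results of these data known. A probe set belonged when the platform annotation gave it exactly 1 symbol and that symbol was Egr1, Egr2, Nr4a1, Ier2, Ier3, Myc or Srf. The search found 7 probe sets of the 12488 on the array, for 6 of the 8252 genes that have such a probe set. Egr1 had 2 of them. Srf had none and was dropped. The 4 groups were XIAP knockout cells given 20 ng/ml TNFa for 4 hours, XIAP knockout cells left unstimulated, wild-type cells given the same TNFa treatment, and wild-type cells left unstimulated. All cells were grown in the same serum-containing medium, and treated cells were confluent when TNFa was added. Each group was a single Affymetrix U74Av2 array of total RNA. Differences between arrays therefore cannot be set against a spread between cultures, and precision is limited by how few arrays there are. The labels name neither the number or age of the mice behind the cultures nor the deleted part of Xiap.

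Early response genes are transcribed within minutes of a growth factor, cytokine or stress signal, without prior protein synthesis, and many of their transcripts are short-lived. Their promoters are typically switched on by serum response factor with its ternary complex partners, by cAMP response element binding proteins, or by NF-kB, the factor that TNF activates. Several of the products are transcription factors that pass the signal on to a later set of genes. Egr1 and Egr2 are zinc finger factors, Nr4a1 is an orphan nuclear receptor, and Myc is a helix-loop-helix leucine zipper factor that binds DNA with Max. Ier2 encodes a small nuclear protein. Ier3, also called IEX-1, encodes a short-lived membrane-anchored protein that affects cell survival and is a known NF-kB target.

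The window from 250 bases before to 50 bases after a transcription start was taken from RefSeq (build GRCm38.p6) for Egr2, Nr4a1 and Ier3, 3 of the 6 genes. Windows on 1 chromosome were left out of this search beforehand. No window was used for Egr1, Ier2 or Myc, so nothing is said of their motifs. The 3 genes shown are those left with a window, and were not picked by response or motif. Of the 5 Egr2 windows 1 is printed, and the motifs differ between the 5. Capitals mark matches on either strand to a CArG box (bound by serum response factor), a kappa-B site (NF-kB), the cAMP response element TGACGTCA, the EGR site GCGNGGGCG, the Nr4a1 element AAAGGTCA or the E-box CACGTG (Myc with Max). Sequences run 5′ to 3′, and all 3 lie on the plus strand. The Egr2 window is chr10:67537619-67537918, the Nr4a1 window chr15:101266596-101266895 and the Ier3 window chr17:35821463-35821762.
Egr2: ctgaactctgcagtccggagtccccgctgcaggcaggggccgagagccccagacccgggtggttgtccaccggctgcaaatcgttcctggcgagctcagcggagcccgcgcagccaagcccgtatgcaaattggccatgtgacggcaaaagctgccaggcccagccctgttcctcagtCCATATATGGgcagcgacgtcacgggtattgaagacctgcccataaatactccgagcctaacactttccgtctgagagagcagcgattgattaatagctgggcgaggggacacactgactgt
Nr4a1: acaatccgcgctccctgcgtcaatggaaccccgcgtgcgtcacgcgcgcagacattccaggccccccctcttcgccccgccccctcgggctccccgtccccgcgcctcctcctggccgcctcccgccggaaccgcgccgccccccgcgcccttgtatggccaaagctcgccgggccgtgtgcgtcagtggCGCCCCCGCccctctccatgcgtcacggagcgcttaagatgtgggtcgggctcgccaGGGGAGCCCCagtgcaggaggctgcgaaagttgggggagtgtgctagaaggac
Ier3: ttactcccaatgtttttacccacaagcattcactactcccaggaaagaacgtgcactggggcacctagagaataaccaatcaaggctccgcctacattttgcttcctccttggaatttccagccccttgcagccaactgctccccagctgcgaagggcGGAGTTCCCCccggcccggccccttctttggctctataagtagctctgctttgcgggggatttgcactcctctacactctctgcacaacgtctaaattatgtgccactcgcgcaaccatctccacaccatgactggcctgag
The Egr2 window held 1 CArG box, CCATATATGG, whose first base lies 72 bases before the start. RefSeq lists 5 Egr2 starts, and windows at 4 of them held a CArG box, although 3 of those 4 overlap and share the same one. Across all 32851 promoter windows of this length, 1.63% held a CArG box. The Nr4a1 window held an EGR site on the opposite strand, CGCCCCCGC, and a kappa-B match that spans the start. EGR sites occurred in 5.55% of all windows and kappa-B matches in 8.46%. The Ier3 window held 1 kappa-B match, GGAGTTCCCC, beginning 92 bases before the start. The cAMP response element (1.79% of windows) and the Nr4a1 element (1.51%) matched no window of these 3 genes. An Egr2 window that is not printed held an E-box (7.15% of windows) and 2 overlapping kappa-B matches. No matches in the printed windows overlapped. A match describes the letters only, and no binding was measured.

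Signals are the deposited probe set intensities on a linear scale. All 4 arrays had been scaled to a common trimmed mean, but their medians over all probe sets were 172 for TNF-treated knockout, 178 for unstimulated knockout, 150 for TNF-treated wild-type and 182 for unstimulated wild-type cells. Lower signals were set to a floor of 92.5, which is percentile 40 of all non-control signals, before taking log2, and a ratio with an array at the floor is a bound, written as at least N-fold. Of 10 fibroblast markers, 8 to 9 were above the floor on each array, and their summed signals, carried by the collagen genes Col1a1, Col1a2 and Col3a1, lay between 60164 and 63838. Single markers differed by genotype. Thy1, a surface glycoprotein gene, had 219 in TNF-treated and 308 in unstimulated knockout cells, and 1384 in TNF-treated and 1120 in unstimulated wild-type cells. S100a4, a calcium-binding protein gene, had 4144 and 4106 in knockout against 1226 and 1351 in wild-type cells, TNF-treated before unstimulated. In the limma fit described below, 3 of the 10 markers fell in knockout cells (Thy1, Fap and Pdgfrb) and 1 rose (S100a4), and none was called for TNF. The part of these differences in the genotype results of the early genes was not tested. Vim was at or below the floor on all but the unstimulated knockout array, and Fap on both knockout arrays. The floor is not a detection call, so such signals do not show that a transcript was absent. The leukocyte markers Ptprc, Adgre1 and Itgam were at or below the floor on every array. Cd68 and Csf1r were above it on all 4 arrays, and Lyz2 on the unstimulated knockout array. Of all 6 leukocyte markers 2 to 3 were above it, with sums of 558 in TNF-treated and 657 in unstimulated knockout cells, and 285 in TNF-treated and 599 in unstimulated wild-type cells. Of 5 epithelial markers only Cdh1 was above the floor, on each array. The sums of all 5 were 603 in TNF-treated and 634 in unstimulated knockout cells, and 371 in TNF-treated and 556 in unstimulated wild-type cells. For 4 endothelial markers, of which at most 2 were above it, they were 155 in TNF-treated and 193 in unstimulated knockout cells, and 156 in TNF-treated and 358 in unstimulated wild-type cells. The leukocyte, epithelial and endothelial sums, which include signals at or below the floor, were thus all lower with TNF in both genotypes. The fibroblast sums were lower too, at 60164 against 62896 in knockout and 61070 against 63838 in wild-type cells. The part of these sums in the results was not tested. The brightest Xiap probe set gave 120 in TNF-treated and 180 in unstimulated knockout cells, and 126 in TNF-treated and 239 in unstimulated wild-type cells. Whether any of them lies in the deleted part is not known, so they do not check the genotype labels. The 8 measured NF-kB feedback genes, used to check the treatment, were all at least 2-fold higher with TNF in both genotypes.

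Egr1 had a signal of 596 in TNF-treated and 370 in unstimulated knockout cells, and of 2427 in TNF-treated and 518 in unstimulated wild-type cells. The TNF-treated wild-type array stood far above the other 3, which lay between 370 and 596. These values come from probe set 98579_at. The second Egr1 probe set, 161802_i_at, lay below the floor on all 4 arrays (6.2 and 29.1 in knockout, 8.5 and 19.9 in wild-type cells, TNF-treated before unstimulated) and gave no ratio. All other Egr1 results therefore rest on 98579_at alone.

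Egr2 (102661_at), a close relative of Egr1 best known for its part in hindbrain and myelin development, had 218 in TNF-treated and 138 in unstimulated knockout cells, and 472 in TNF-treated and 82.3 in unstimulated wild-type cells. The last of these is below the floor. Nr4a1 (102371_at) had 112 in TNF-treated and 150 in unstimulated knockout cells, and 466 in TNF-treated and 171 in unstimulated wild-type cells. It was the only one of the 6 genes with its lowest signal on the TNF-treated knockout array.

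Ier2 (99109_at) had 970.0 in TNF-treated and 724 in unstimulated knockout cells, and 2240 in TNF-treated and 781 in unstimulated wild-type cells. Ier3 (94384_at) had 2054 in TNF-treated and 710.3 in unstimulated knockout cells, and 3948 in TNF-treated and 987 in unstimulated wild-type cells. Ier3 alone stood clearly higher with TNF on both pairs of arrays. Myc (104712_at) had 314 in TNF-treated and 266 in unstimulated knockout cells, and 766 in TNF-treated and 259 in unstimulated wild-type cells, so that its 2 unstimulated arrays and the TNF-treated knockout array lay close together.

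**Figure D1:**
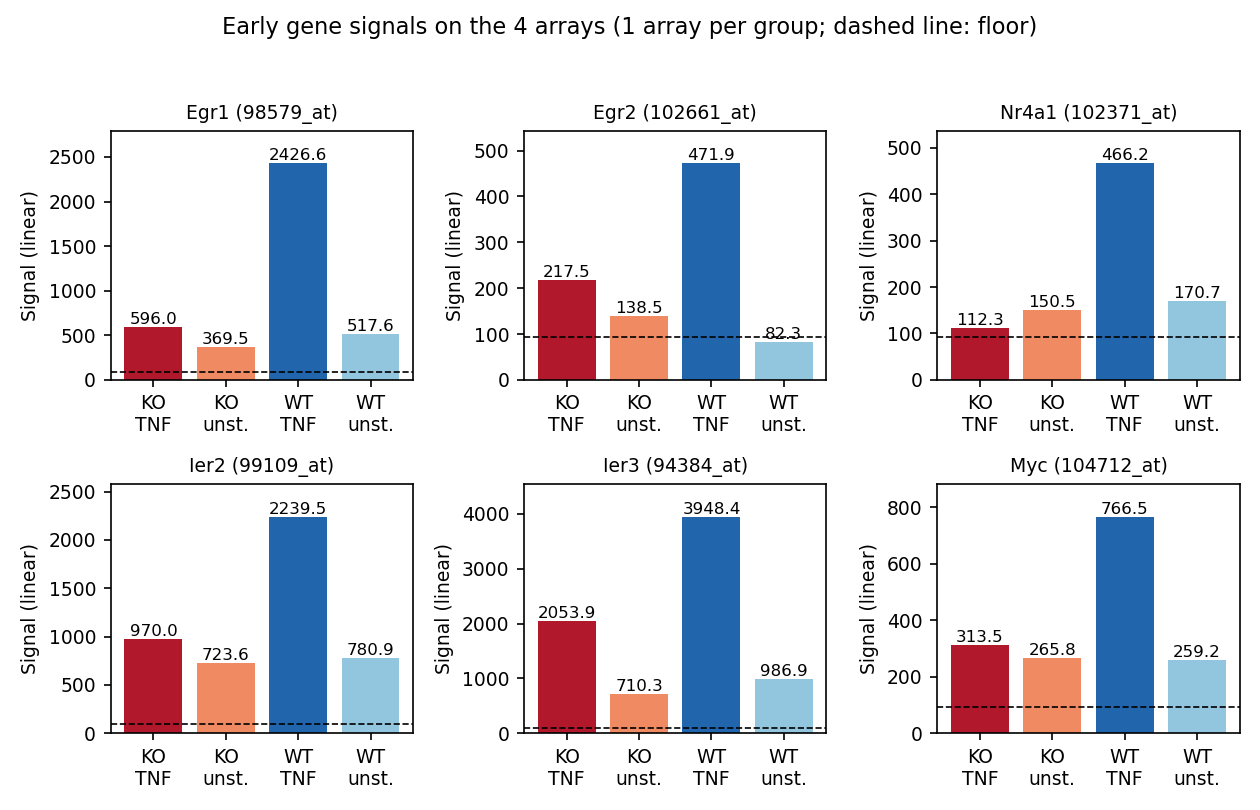
Signal (linear scale, from 0) of the brightest probe set of each early gene on the 4 arrays, 1 bar per array: XIAP knockout (KO) and wild-type (WT) cells with TNF or unstimulated. The dashed line is the floor of 92.5; in all 6 panels the TNF-treated wild-type array is the highest.

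The order of the arrays was thus alike across the genes at its top. The TNF-treated wild-type array was the highest for 6 of 6 measured probe sets, and by at least 2-fold over the next array for 5, the exception being Ier3 at 1.92-fold. This count was chosen after its values were seen. Over all 8228 probe sets above the floor on at least 1 array, 0.936% had that array highest by at least 2-fold. The lead was 4.07-fold for Egr1, 2.73-fold for Nr4a1, 2.44-fold for Myc, 2.31-fold for Ier2 and 2.17-fold for Egr2. The TNF-treated knockout array came second for 5 genes. Below the top, unstimulated knockout and unstimulated wild-type cells exchanged places, and with 1 array a group no spread is available to tell such neighbours apart. All of these statements rest on a single TNF-treated wild-type array. With the floor at the 60th percentile 3 of the 6 led by 2-fold, beside 0.808% of probe sets. With equal medians all 6 did, Ier3 included, beside 1.75%. In whole cultures, a lower share of expressing cells and less RNA per cell cannot be told apart.

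In knockout cells, TNF-treated against unstimulated, 1 of the 6 measured early genes was at least 2-fold higher and none was lower. Over all 7764 probe sets measured in that comparison, 1.57% were at least 2-fold higher and 0.399% lower. Ier3 was 2.89-fold higher (log2 ratio 1.53). Egr1 was 1.61-fold and Egr2 1.57-fold higher, Ier2 1.34-fold and Myc 1.18-fold. Nr4a1 was 1.34-fold lower (log2 ratio -0.42). The median log2 ratio of the 6 was 0.54, beside -0.05 for all probe sets measured. Ranked among all probe sets, Egr1, Egr2 and Ier2 stood at percentiles 96.9, 96.6 and 93.1, so that ratios under 2-fold still placed them in the upper tail of this pair of arrays, while Myc stood at 85.9 and Nr4a1 at 7.42.

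In wild-type cells all 6 measured early genes were past 2-fold, and higher, when TNF-treated were set against unstimulated cells. Of 7846 probe sets 2.54% were that much higher and 2.79% lower. The genes were chosen with earlier results of these data known, so the contrast with these shares is not a test. Egr2 was at least 5.10-fold higher (log2 ratio at least 2.35), Egr1 4.69-fold (2.23) and Ier3 4.00-fold. Myc followed at 2.96-fold (1.56), Ier2 at 2.87-fold (1.52) and Nr4a1 at 2.73-fold (1.45). All 6 stood at or above percentile 98.5 of all probe sets, with 38 probe sets above Egr2 and 117 above Nr4a1. The median log2 ratio was 1.78, beside -0.10 for all probe sets. With a floor at the 60th percentile (a signal of 290.7), Egr2 and Nr4a1 fell short of 2-fold, at log2 ratios of at least 0.70 and at least 0.68. The background depended on scaling: 199 probe sets were at least 2-fold higher and 219 lower as deposited, 252 and 117 after quantile normalization, and 367 and 97 with equal medians.

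**Figure D2:**
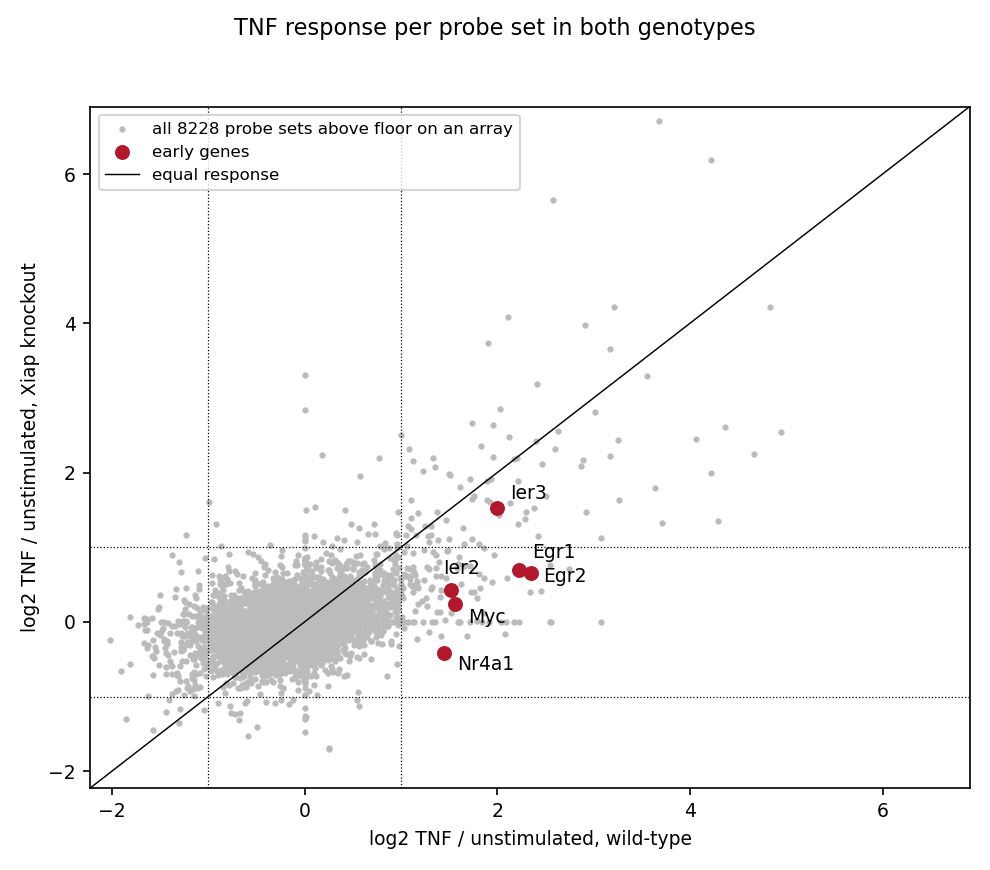
Log2 ratio of TNF-treated to unstimulated signals in wild-type cells (x axis) and XIAP knockout cells (y axis) for the 8228 probe sets above the floor on at least 1 array (grey) and the 6 early genes (red); dotted lines mark 2-fold and the solid line an equal response. All 6 early genes lie right of 2-fold and below the line of equal response, and only Ier3 is also above 2-fold in knockout cells.

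The difference of response subtracts the wild-type log2 ratio with TNF from the knockout one. It was below 0 for all 6 genes, at -1.87 for Nr4a1, at most -1.70 for Egr2, and smaller in size for Egr1 (-1.54), Myc (-1.33) and Ier2 (-1.10). Ier3 differed least, at -0.47, so that its response in knockout cells was 1.38-fold smaller. The response was at least 2-fold smaller in knockout cells for 5 of 6 genes, beside 1.23% of 8228 probe sets, and larger for none, beside 2.69%. With the floor at the 60th percentile 3 of the 6 were that much smaller, beside 0.861% of 5691 probe sets. No test of this difference is possible, because it uses up the only degree of freedom that the 4 arrays leave. All responses were read at 4 hours of TNFa only, and no earlier time was sampled. As deposited, 221 probe sets had a response at least 2-fold larger and 101 a smaller one in the knockout, against 145 and 146 after quantile normalization and 124 and 204 with equal medians.

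A high signal on the TNF-treated wild-type array enters both the wild-type response and the difference, so probe sets high in the first tend to be low in the second. Among the 199 probe sets past 2-fold in that direction in wild-type cells, 82.4% had a smaller response in knockout cells and 36.7% one at least 2-fold smaller (median log2 difference -0.73). For the 6 early genes, all of which are in that set, the median was -1.43. For the NF-kB feedback genes the median was -0.30 and 0 of 8 differed 2-fold, with values from -0.82 for Bcl3 to 0.68 for Nfkbie. Tnfaip3, Bcl3 and Birc3 were below the floor on both unstimulated arrays, so their difference compares the TNF-treated arrays alone. Nfkbia, which encodes the inhibitor that holds NF-kB in the cytoplasm, was 5.91-fold higher with TNF in knockout and 6.20-fold higher in wild-type cells.

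The genotypes were also compared without TNF. None of the 6 was measured as 2-fold higher or lower in unstimulated knockout cells, beside 4.53% of 8060 probe sets higher and 4.58% lower. With shares that small, none of 6 does not set these genes apart. Egr1 and Ier3 were 1.40-fold and 1.39-fold lower, Nr4a1 1.13-fold and Ier2 1.08-fold lower, and Myc 1.03-fold higher. Egr2 had a log2 ratio of at least 0.58, its wild-type signal being below the floor. With the floor at the 20th percentile, below both signals, its log2 ratio was 0.75, still under 2-fold.

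With TNF, all 6 were lower in knockout than in wild-type cells, 5 of them at least 2-fold, beside 4.97% of 7754 probe sets, and none was higher, beside 5.83%. Nr4a1 was 4.15-fold and Egr1 4.07-fold lower. Myc was 2.44-fold, Ier2 2.31-fold and Egr2 2.17-fold lower, and Ier3 1.92-fold. The median log2 ratio was -1.25, beside 0.08 for all probe sets. This comparison and the wild-type response share the TNF-treated wild-type array and are not independent. Over all probe sets 452 were at least 2-fold higher and 385 lower as deposited, and 323 and 573 with equal medians. With the floor at the 60th percentile, 3 of the 6 were at least 2-fold lower, beside 4.27% of 5337 probe sets. Egr2 and Nr4a1 dropped out, since they then had a knockout signal at the floor. With equal medians all 6 were at least 2-fold lower, Ier3 having a log2 ratio of -1.14.

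The 4 arrays were also fitted together in limma, with additive terms for TNF and genotype and Benjamini-Hochberg adjustment over 8228 probe sets. The fit has 1 residual degree of freedom, which is the difference of response itself, so a gene that responds unequally in the genotypes gets a large error. Ier3, with the smallest such difference, rose with TNF by 1.77 on the log2 scale (SE 0.14, limma adjusted p = 0.00351), higher in both pairs of arrays. It was the only 1 of the 6 that passed, beside 1.08% of probe sets that rose and 0.0851% that fell. Egr1 (log2 effect 1.46, SE 0.34), Egr2 (2.83-fold, SE 0.40 on the log2 scale), Ier2 (0.97, SE 0.25) and Myc (0.90, SE 0.33) had limma adjusted p-values of 0.140 to 0.314, and Nr4a1 (0.51, SE 0.43) had 0.608. With equal medians 5 of the 6 passed, beside 389 probe sets that rose and 104 that fell of 8186. Without the intensity trend none did, beside 15 that rose and 0 that fell of 8228.

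For genotype in the same limma fit, Ier3 fell by 0.71 on the log2 scale in knockout cells (SE 0.14, adjusted p = 0.0175) and Egr1 fell by 1.26 (SE 0.34, adjusted p = 0.0463). Both were lower in knockout cells in each pair of arrays. Thus 2 of 6 fell, beside 9.18% of all probe sets, and none rose, beside 10.2%. Genotype cannot be told apart from any other difference between the cultures. Nr4a1 (-1.12), Ier2 (-0.66), Myc (-0.63) and Egr2 (-0.27) had limma adjusted p-values between 0.118 and 0.696. With equal medians 5 of 6 passed, beside 825 probe sets that rose and 1034 that fell of 8186. Without the intensity trend none did, beside 562 that rose and 487 that fell of 8228.

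Likeness of pattern was measured as the Euclidean distance between log2 signals over the 4 arrays, each gene centred on its own mean, among the 5130 genes above the floor on all 4. Ier2 and Myc were each other's nearest gene, at a distance of 0.14. After Myc, Ier2 was nearest to Slc25a25 (0.18) and Gm7775 (0.25). After Ier2, Myc was nearest to Socs3 (0.27) and Rrs1 (0.28). Nr4a1 was nearest to Isg15 (0.17), Rgs16 (0.24) and Mfhas1 (0.32), and Ier3 to Tnfaip2 (0.27), Csf1 (0.30) and Tnip1 (0.39). Egr1 had no gene as close, its nearest being Hp (0.46), Plscr1 (0.48) and Ankrd1 (0.61). The early genes were not all alike: Nr4a1 and Ier3 lay 1.49 apart, and Ier3 took place 1716 among 5129 genes ordered by distance from Nr4a1. Egr2 was left out because of its wild-type signal below the floor.

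Genes around the early genes were counted by lists, each gene standing for its brightest probe set. The Nab corepressors bind Egr proteins and restrain them. Of these and the relatives of Egr and Nr4a, Nr4a2, Nab1 and Nab2 were measured, 3 of 6 listed. None differed 2-fold in any comparison. Over all genes, 0.409% to 5.62% did so in 1 direction, depending on the comparison, so none of 3 does not set these genes apart. Nab1 had signals of 1982 in TNF-treated and 1148 in unstimulated knockout cells, and of 1962 in TNF-treated and 1280 in unstimulated wild-type cells. It rose with TNF by 0.70 on the log2 scale (SE 0.11, limma adjusted p = 0.0491), higher in both pairs. That p-value lies just under the threshold of 0.05. Of the 3 only Nab1 was called, beside 1.08% of probe sets that rose.

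With TNF, 6 of 38 other immediate early genes measured in knockout cells and 13 of 39 measured in wild-type cells passed 2-fold upward, and none downward. Over all genes 1.48% were higher and 0.409% lower in knockout cells, and 2.64% higher and 2.61% lower in wild-type cells. The median log2 ratio was 0.42 in knockout and 0.87 in wild-type cells, beside -0.04 and -0.10 for all genes in the same order. Phlda1, a pleckstrin homology-like domain gene, was 3.11-fold higher in knockout and at least 9.60-fold higher in wild-type cells. Dusp1, a phosphatase gene that switches off MAP kinases, was 2.82-fold higher in knockout cells, while the wild-type ratio was 1.01. In the limma fit 5 of 39 rose with TNF (Cebpb, Fosl1, Junb, Klf6 and Pim1) and none fell, beside 1.08% and 0.0851% of all probe sets. For genotype 10 of 39 fell in knockout cells, among them Cebpb, Klf6 and Pim1, and 4 rose (Btg1, Gadd45b, Rhob and Sgk1), beside 9.18% and 10.2%. Between genotypes without TNF, 5 of 38 differed by 2-fold or more upward in knockout cells and 3 downward, beside 4.55% and 4.7% of all genes. Sgk1, a kinase gene, was 4.14-fold higher and Ccn2, a matrix protein gene, 2.75-fold lower. With TNF 9 of 39 were at least 2-fold lower in knockout cells and none higher, beside 5.01% and 5.62% of all genes. Fos, the AP-1 subunit gene, was at least 5.94-fold lower and the transcription factor gene Cebpd 5.28-fold lower. The 13 genes past 2-fold in wild-type cells were chosen through the array that also enters the difference. All 13 had a smaller floored response in knockout cells, beside 82.4% of the 199 probe sets chosen likewise, and 7 one at least 2-fold smaller, beside 36.7%. Over the whole list 8 of 39 responses were at least 2-fold smaller, beside 1.13% of all genes, and 1, that of Dusp1, was larger, beside 2.53%. Of these 8, Ccn1, Plk2 and Sgk1 were 2.36-fold, 2.33-fold and 4.14-fold higher in unstimulated knockout than wild-type cells. With TNF these genes were less than 2-fold apart, as was Zfp36l1, while Fos, Dusp6, Cebpd and Phlda1 were at least 2-fold lower in the knockout.

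**Figure D3:**
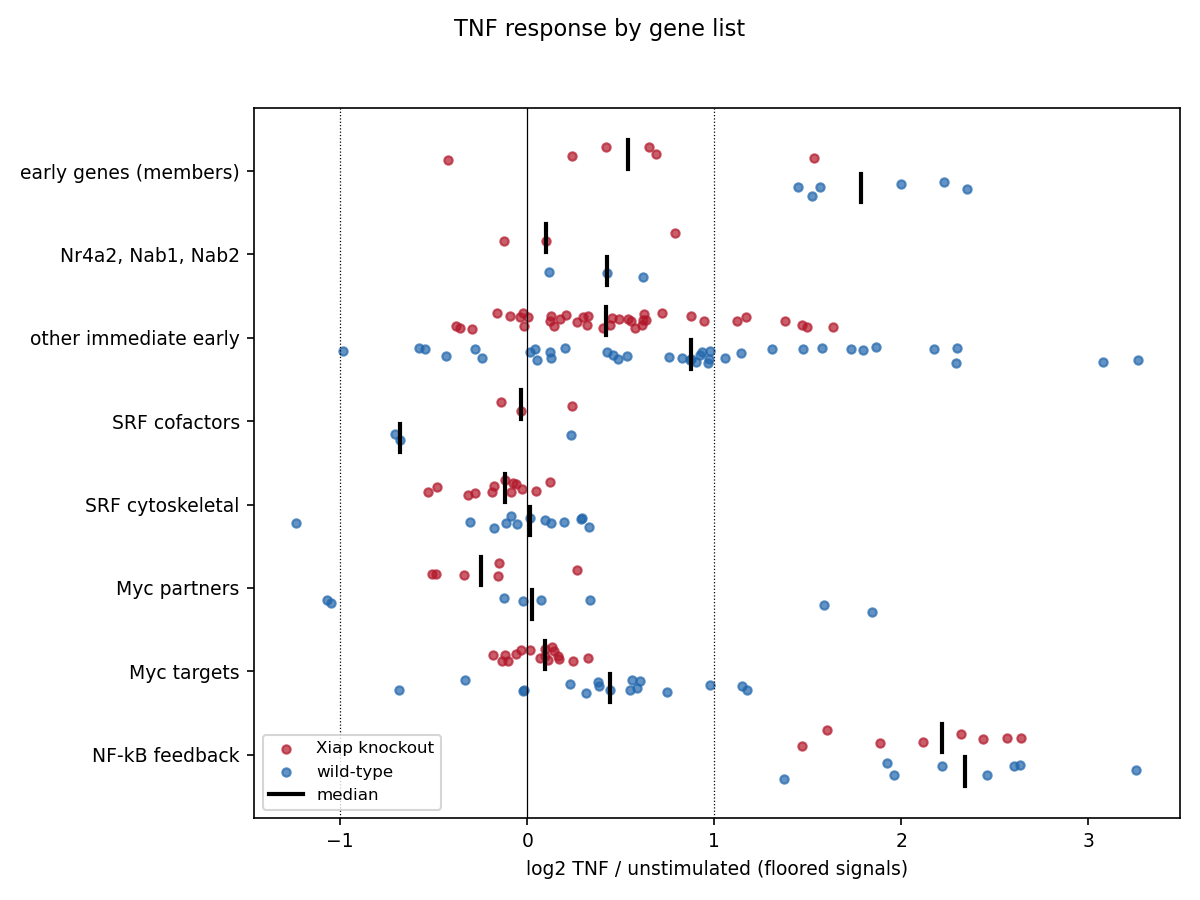
Log2 ratio of TNF-treated to unstimulated floored signals per gene, by list, in XIAP knockout (red, upper row of each list) and wild-type cells (blue, lower row); black bars are list medians and dotted lines 2-fold. The early genes have medians of 0.54 in knockout and 1.78 in wild-type cells, while the NF-kB feedback genes have 2.22 and 2.34.

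The partners of serum response factor are the ternary complex factors (Elk1, Elk3 and Elk4) and the myocardin-related cofactors. Of 3 measured, none differed 2-fold with TNF in either genotype. Over all genes 1.48% were higher and 0.409% lower in knockout cells, and 2.64% and 2.61% in wild-type cells. With shares that small, none of 3 does not set these genes apart. Elk3, a ternary complex factor gene, was at least 3.32-fold higher in knockout than in wild-type cells with TNF and 2.08-fold higher without. Of 13 measured cytoskeletal genes that depend on serum response factor, none was 2-fold higher with TNF in either genotype. Beside the same shares, none of 13 does not set them apart either. Among the 13, the LIM domain gene Fhl2 was 2.35-fold lower with TNF in wild-type cells. Between unstimulated cultures 3 stood at least 2-fold higher in the knockout, with the calponin gene Cnn1 4.03-fold higher, and 1, Fhl2, was 2.63-fold lower, beside 4.55% and 4.7% of all genes. In the limma fit for genotype 6 of the 13 rose in knockout cells (Acta2, Cnn1, Myl9, Tagln, Tgfb1i1 and Tpm1) and 2 fell (Actb and Fhl2), beside 10.2% and 9.18% of probe sets, and Elk3 rose among the 3 partners. None of either list was called for TNF, beside 1.08% of probe sets that rose and 0.0851% that fell.

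Among partners and relatives of Myc, none of 6 measured genes differed 2-fold with TNF in knockout cells. The shares of all genes there were 1.48% higher and 0.409% lower. In wild-type cells 2 of 8 were at least 2-fold higher and 2 lower, beside 2.64% and 2.61% of all genes. Zbtb17, which encodes the Myc-binding repressor partner Miz-1, was at least 3.59-fold and Mycl at least 3.01-fold higher, and both were below the floor on every other array. Mxd4 and Mxi1, which compete with Myc for Max, were 2.10-fold and 2.07-fold lower. Max itself had 779 in TNF-treated and 869 in unstimulated knockout cells, and 917 in TNF-treated and 871 in unstimulated wild-type cells. Myc target genes of ribosome assembly and metabolism had a median log2 ratio with TNF of 0.09 in knockout and 0.44 in wild-type cells. Of 17 measured, 0 passed 2-fold upward in knockout and 2 in wild-type cells, namely the ribosome assembly genes Rrs1 (2.26-fold) and Nolc1 (2.22-fold), beside 1.48% and 2.64% of all genes in knockout and wild-type cells. In the limma fit none of the 17 targets or 8 partners was called for TNF, beside 1.08% of probe sets up and 0.0851% down. For genotype 3 targets (Cdk4, Fbl and Ldha) and 1 partner (Mxd3) rose in knockout cells and none fell, beside 10.2% and 9.18% of probe sets.

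**Figure D4:**
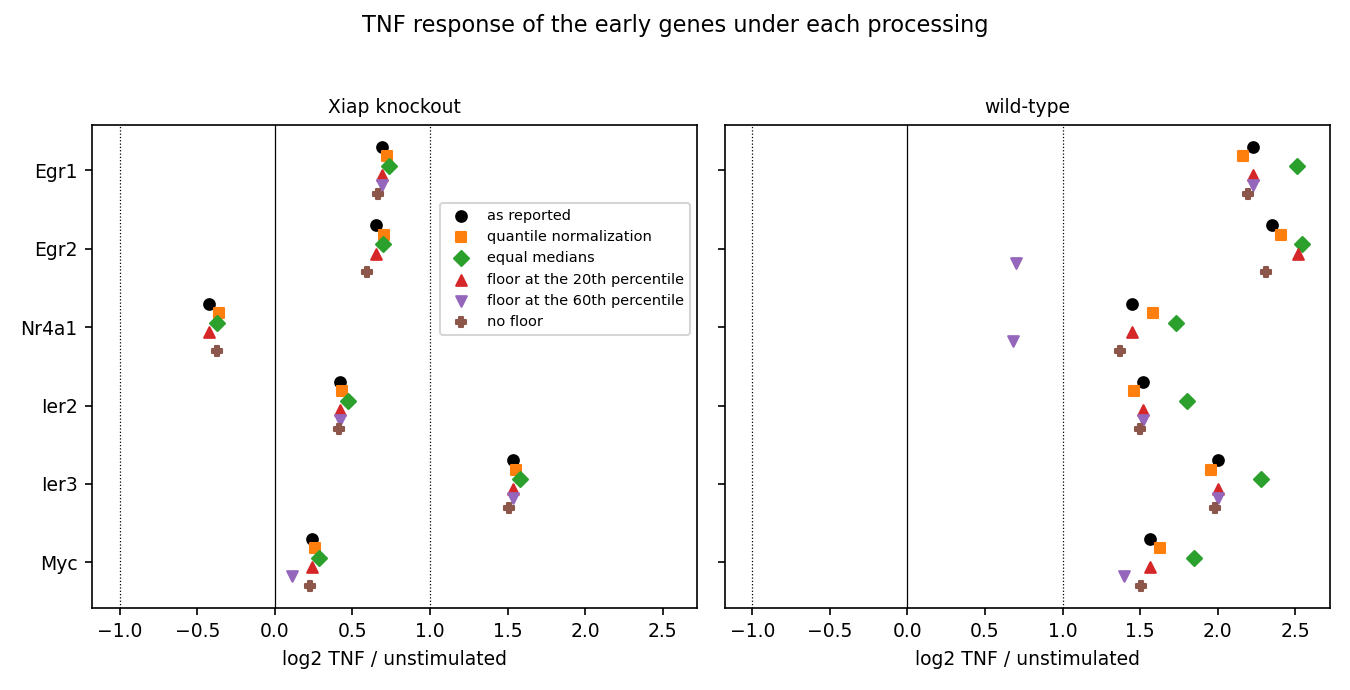
Log2 ratio of TNF-treated to unstimulated signals of each early gene in XIAP knockout (left) and wild-type cells (right) as reported and under 5 other settings of scaling and floor; dotted lines mark 2-fold. The points of a gene keep their sign, and those in wild-type cells stay above 2-fold except Egr2 (0.70) and Nr4a1 (0.68) with the floor at the 60th percentile; in knockout cells these genes have no value at that floor.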

How the data were processed

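Total RNA from 4 cultures was hybridised to 1 single-colour array each. Per the submitters' processing notes, the authors made the deposited probe set intensity values with MAS5. Version, background settings and detection calls were not stated there. Groups came from sample titles. Probe sets were named through the platform annotation (10833 with a single symbol), and 66 control probe sets were left out. Signals were raised to a floor at the 40th percentile (92.5) and converted to log2, where the floor understates changes of dim genes and removes the order below it. A ratio needed at least 1 of its arrays above the floor. Comparisons of 2 arrays have no test, and probe sets at least 2-fold apart were counted. The additive fit used limma 3.58.1 in R 4.3.3 (lmFit, eBayes with intensity trend, 2-sided, adjusted p threshold 0.05). Its p-values have no replicate cultures behind them. Alternatives were equal medians, quantile normalization, a floor at the 20th or the 60th percentile, no floor with a pseudocount of 16, a 1.5-fold threshold, no intensity trend and 1 probe set per gene. The genes and lists were chosen with earlier results of these data known. The rule for named genes took every early gene in all comparisons, at most 2 genes per list and comparison by size of change past 2-fold, and the 3 nearest genes by distance. Genes called in the limma fit, single fibroblast markers and Max were added after their values were seen. Python 3.11.15, numpy 2.4.6, pandas 2.3.3 and matplotlib 3.10.9 were used for ratios and figures.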

Additional observations from a re-analysis of the deposited data

Results flagged for a closer look

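For 3 genes a ratio pointed one way on 1 pair of arrays and the opposite way on the other pair, each pair being 1 array against 1. The differences were not tested. Nr4a1 had a log2 ratio with TNF of -0.42 in knockout and 1.45 in wild-type cells, a difference of -1.87. Egr2 in knockout over wild-type cells had a log2 ratio of -1.12 with TNF and at least 0.58 without, a difference of at most -1.70. For Myc the same ratios were -1.29 with TNF and 0.04 without, a difference of -1.33. The unstimulated Myc ratio is small, at 1.03-fold.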

How the results depend on the processing

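No log2 ratio or fitted effect of the 6 early genes changed sign under any alternative that gave a value. Of 145 recomputed ratios, 140 moved by less than 0.58 on the log2 scale, and the other 5 were Egr2 and Nr4a1 values with the floor at the 60th percentile. That floor left 4 of 6 genes past 2-fold with TNF in wild-type cells, beside 2.42% of probe sets higher. It left 3 at least 2-fold lower in knockout cells with TNF (4.27%) and 3 with a response at least 2-fold smaller (0.861%). By 2-fold, 3 were highest on the TNF-treated wild-type array (0.808%). The counts were lower because fewer signals lie above that floor. Equal medians put all 6 past 2-fold in the comparison of genotypes with TNF and in the lead of the TNF-treated wild-type array. Of all probe sets at that setting, 7.31% were as much lower and 1.75% had that lead. A 1.5-fold threshold put 3 genes higher with TNF in knockout cells, beside 3.98% of probe sets. In the limma fit, adjusted p passed for 5 of 6 genes for TNF and 5 for genotype with equal medians, for 2 for TNF with no floor, and for 0 for either effect without the intensity trend, where 4 had an unadjusted p below 0.05 for TNF and 2 for genotype; the cause was not tested. Equal medians moved the median log2 ratio of all probe sets with TNF in wild-type cells to 0.16, against -0.10 as deposited. Over scalings and floors, the probe sets at least 2-fold higher with TNF numbered 73 to 284 in knockout (122 as reported) and 128 to 367 in wild-type cells (199), and those lower 7 to 265 (31) and 39 to 1012 (219). Between genotypes the counts ran from 194 to 666 higher (365) and 194 to 757 lower (369) without TNF, and from 194 to 1064 higher (452) and 228 to 615 lower (385) with TNF. Responses at least 2-fold larger in the knockout numbered 45 to 987 (221) and smaller ones 49 to 362 (101). Probe sets that rose with TNF in the limma fit numbered 15 to 389 (89). With no floor 172 rose and 45 fell of 8228. For genotype, 562 to 1017 rose in knockout cells (841) and 487 to 1034 fell (755). A 1.5-fold threshold gave 309 higher and 245 lower in knockout and 485 and 1076 in wild-type cells. No paired analysis was possible because each group has a single array. Leaving out an array was not possible for the same reason.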
